A study of Arabidopsis thaliana with 12 samples.

Results

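Transcripts of the 2 organelle genomes were followed through drought in young leaves of Arabidopsis thaliana. All probe sets whose code starts with ATCG were taken as chloroplast transcripts and all whose code starts with ATMG as mitochondrial transcripts, whatever their values. This gave 72 chloroplast and 50 mitochondrial probe sets, 122 of the 21461 probe sets tested. At the first day of wilting 8 chloroplast probe sets fell (3 fell and 8 others rose after cyclic loess normalisation) and 5 mitochondrial probe sets rose. These are 11.1% of the chloroplast and 10.0% of the mitochondrial probe sets, where 27.0% of all probe sets were called, 14.5% lower and 12.5% higher. None of either genome was called on day 1 or day 10 of a moderate drought, where 0.0186% and 0.107% of all probe sets were. The chloroplast probe sets also differed widely between replicate control arrays, and those differences are given before the drought results.

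The plants were of the Columbia accession, with no transgene or mutation named in the labels, grown in peat pellets with a 10 h photoperiod at 22 °C. Plants of the moderate drought stopped receiving water when 30 days old, were held at a soil moisture of 30% of field capacity, and gave leaves at day 1 and day 10 of treatment. Plants of the progressive drought stopped receiving water when 35 days old and were sampled on the first day of wilting. The 6 groups were day 1 drought with its well-watered control, day 10 drought with its control, and progressive drought with its control. Each group had 2 Affymetrix ATH1 arrays, and each array held RNA pooled from 5 plants, so n counts pools and the number of arrays limits the precision.

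Chloroplasts and mitochondria keep small genomes of their own beside the nuclear genome. The chloroplast genome encodes core subunits of both photosystems, the cytochrome b6f complex, the ATP synthase, the NADH dehydrogenase-like complex, the large subunit of Rubisco, ribosomal proteins and a bacterial-type RNA polymerase. The mitochondrial genome of plants encodes subunits of the respiratory complexes, proteins of cytochrome c maturation, ribosomal proteins and further open reading frames. Chloroplast genes are mostly transcribed in long polycistronic units, by the bacterial-type polymerase with nuclear-encoded sigma factors and by nuclear-encoded phage-type polymerases. Organelle RNA levels depend strongly on processing and decay. Mature organelle transcripts mostly lack the stable poly(A) tails of nuclear messengers, and short tails there mark RNA for decay. The labelling kit used primes from poly(A), so its yield from organelle RNA need not follow the amount of that RNA.

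The deposited tables give locus codes without gene names, and the RefSeq table used for names holds 0 codes of the ATCG or ATMG form. Organelle members are therefore given by code alone, with no gene name or role. The same table lists 85 protein-coding genes of the chloroplast genome and 33 of the mitochondrial genome, so at least some of the 50 mitochondrial codes have no protein-coding entry there. Codes of this kind ascend along each genome, and neighbours below are neighbours in code order among the probe sets measured. Near-complete stretches of mitochondrial sequence are known in the nuclear genome of this species, and signal from such copies cannot be told apart from that of the mitochondrial genes.

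Values are log2 RMA values as deposited. Chloroplast probe sets were among the brightest features, with a median on the 12 arrays between 10.56 and 11.76, at percentiles 98.4 to 99.3 of the array. Mitochondrial probe sets were dim, with a median between 3.81 and 4.43, at percentiles 27.5 to 40.9. Only 6 to 15 of the 50 lay above the median of their array, and whether the others exceeded background was not tested. Brightness depends on the probes of each set, so these figures describe signal and not transcript amounts. The 3 comparisons were normalised as separate sets of 4 arrays, and levels are compared within a comparison only. The mesophyll markers RCA and GAPA averaged 12.2 to 13.3 on every array, and shoot apex and root marker lists averaged 3.75 to 4.51 and 4.24 to 5.34.

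**Figure D1:**
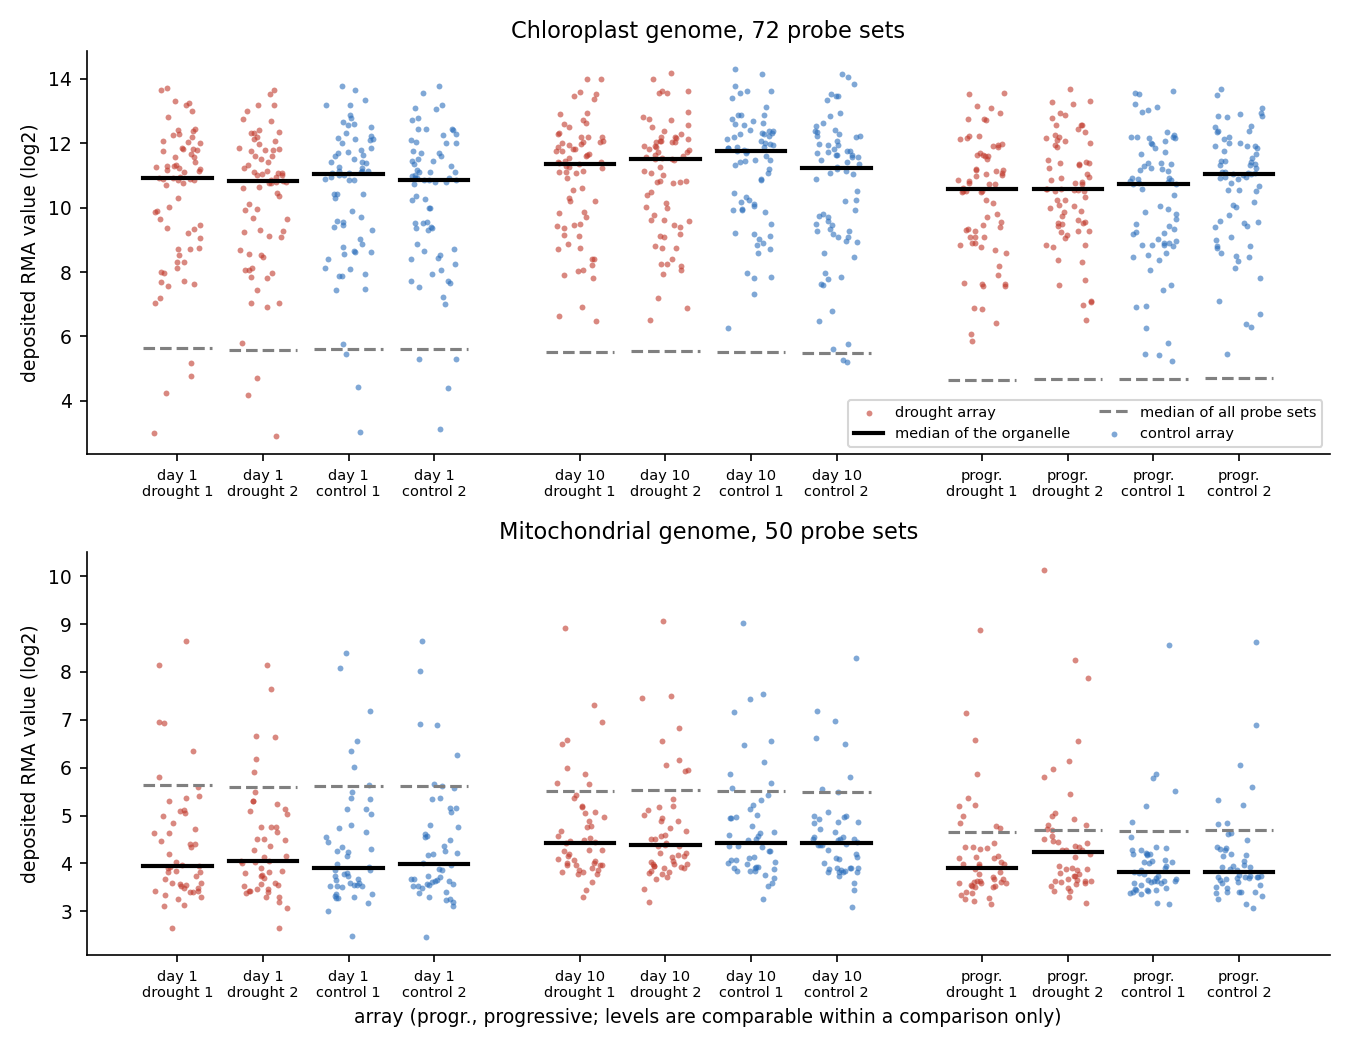
Deposited log2 RMA value (y axis) of each chloroplast probe set (72, top) and each mitochondrial probe set (50, bottom) on each of the 12 arrays (x axis), drought arrays in red and control arrays in blue. Solid bars are the medians of the organelle and dashed bars the medians of all probe sets; chloroplast medians lie between 10.56 and 11.76 and mitochondrial medians between 3.81 and 4.43.

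Of the control arrays, day 10 replicate 2 and progressive replicate 1 differed from their partners in chloroplast transcripts. They are called the arrays that stood apart, a choice made after the values were seen. With 2 arrays per group, which partner departed cannot be told. Day 10 chloroplast medians were 11.36 and 11.50 on the drought arrays, against 11.76 and 11.22 on the control arrays. Differences below are the array that stood apart minus its partner, so their shared sign rests on that choice. Between the day 10 control arrays 16 of 72 chloroplast probe sets differed by more than 1 log2 unit, against 44 of 21339 nuclear probe sets (0.206%). Between the progressive control arrays 13 of 72 did, against 722 nuclear probe sets (3.38%). The 2 lists shared 10 chloroplast codes, which is 62.5% of the first and 76.9% of the second. All 10 went the same way, 9 lower and 1 higher on the array that stood apart. Across the 72 probe sets the 2 replicate differences correlated at r = 0.82, a description over probe sets that share their arrays. The same r was 0.55 over the 50 mitochondrial and 0.35 over the 21339 nuclear probe sets.

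ATCG00070 read 11.37 and 10.81 on the day 10 drought arrays, against 12.37 and 9.33 on the day 10 control arrays. In the progressive comparison it read 12.74 and 12.55 on the drought arrays, against 9.21 and 12.84 on the control arrays. In both comparisons 1 control array lay below both drought arrays and the other above them. ATCG00120 showed the same order on day 10, with 12.94 and 12.76 on the drought arrays, against 13.39 and 11.07 on the control arrays. At wilting ATCG00120 read 12.94 and 12.87 on the drought arrays, against 9.19 and 12.83 on the control arrays, so nearly all of its drought difference of 1.89 ± 1.04 came from control replicate 1. ATCG00270 was the member with the opposite sign: its day 10 values were 11.06 and 10.38 on the drought arrays, against 11.08 and 12.42 on the control arrays. ATCG00080, ATCG00130, ATCG00190, ATCG00360, ATCG00600, ATCG00680 and ATCG00700 were the other 7 shared codes, and the mitochondrial ATMG00660 differed by −1.68 and −1.69 on the arrays that stood apart.

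The spread between replicates was compared over all members. The root mean square SD between replicates over the 72 chloroplast probe sets was 0.19 in day 1 drought, 0.17 in day 10 drought and 0.48 in progressive drought, against 0.17, 0.74 and 0.72 in the controls of the same comparisons. The chloroplast spread was wider in the controls on day 10 and at wilting, and about equal on day 1. Over all probe sets it ran from 0.12 to 0.37 in the 6 groups. Some other values also differed between the control arrays. The 5S ribosomal RNA control probe set read 7.18 and 7.75 on the day 10 drought arrays, against 7.15 and 5.40 on their controls, and 6.48 and 7.50 on the progressive drought arrays, against 5.44 and 5.92 on theirs. Its progressive control arrays thus lay closer together than its progressive drought arrays. Among nuclear probe sets 28 differed by more than 1 log2 unit in both control pairs, 25 of them higher on the arrays that stood apart. JAZ7, a repressor of jasmonate signalling, was higher by 1.09 and 6.23 there, and RRTF1, an early stress transcription factor, by 1.55 and 5.66 (both chosen after their values were seen). Both also differed between drought replicates. JAZ7 read 4.52 and 7.13 on the day 10 drought arrays and 6.05 and 9.02 on the progressive drought arrays. RRTF1 read 4.34 and 6.55 on the day 10 drought arrays and 5.58 and 8.76 on the progressive drought arrays. Their part in the chloroplast differences was not tested.

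**Figure D2:**
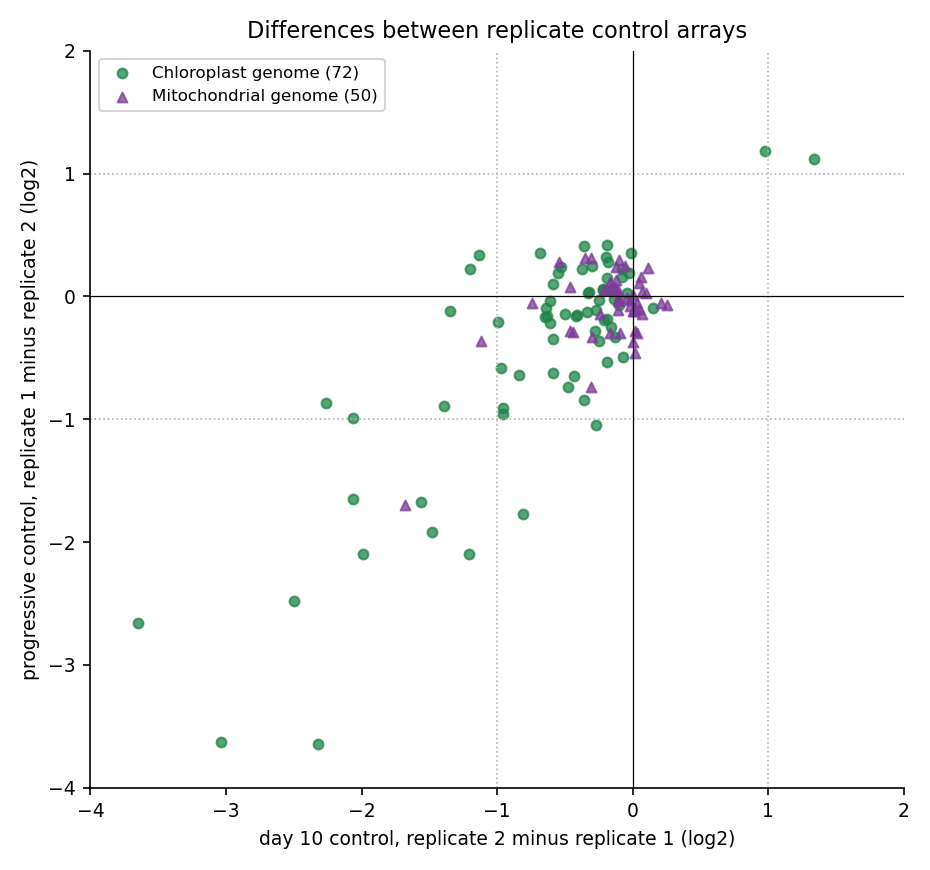
Difference between the 2 replicate control arrays of day 10 (x axis, replicate 2 minus replicate 1, log2) and of the progressive comparison (y axis, replicate 1 minus replicate 2, log2) for the 72 chloroplast (green circles) and 50 mitochondrial (purple triangles) probe sets. Dotted lines mark differences of 1; the 10 chloroplast codes past the lines in both pairs all lie on the diagonal side, 9 at the lower left and 1 at the upper right.

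The first comparison asked what differs on day 1 of moderate drought. No chloroplast and no mitochondrial probe set was called in limma at an adjusted p under 0.05, where 0.0186% of all probe sets were. At an unadjusted p under 0.05 there were 1 chloroplast and 2 mitochondrial probe sets, against 8.69% of all. Chloroplast differences ran from −0.64 to 0.39, with a median of −0.07 and 49 of 72 below 0. Mitochondrial differences ran from −0.25 to 0.32, with a median of 0.03 and 31 of 50 above 0, and the median of all probe sets was 0.01. Against control replicate 1 alone the chloroplast median was −0.13 and against control replicate 2 alone 0.01, so its sign rested on which control array was used. Drought and control arrays did not overlap for 3 higher and 20 lower chloroplast probe sets and for 10 higher and 4 lower mitochondrial ones, where 26.6% of all probe sets were higher and 22.9% lower without overlap.

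ATCG00730 was the lowest chloroplast difference on day 1, with 4.77 and 4.70 on the drought arrays, against 5.44 and 5.31 on the control arrays (−0.64 ± 0.39, adjusted p = 0.701). These values all lay below the array medians, and it was 1 of 4 chloroplast probe sets with a day 1 control mean below them. ATCG00050 (−0.50 ± 0.30), ATCG01120 (−0.49 ± 0.33), ATCG00170 (−0.41 ± 0.35) and ATCG00740 (−0.38 ± 0.16) followed. The highest was ATCG00270, at 9.65 and 9.95 on the drought arrays, against 9.45 and 9.37 on the control arrays (0.39 ± 0.52, adjusted p = 0.906). ATCG00350 (0.28 ± 0.64), ATCG00560 (0.20 ± 0.19), ATCG00500 (0.19 ± 0.24) and ATCG01020 (0.17 ± 0.24) came next. In the mitochondrial genome ATMG00630 was highest, with 3.96 and 3.85 on the drought arrays, against 3.50 and 3.67 on the control arrays (0.32 ± 0.12, adjusted p = 0.516), all below the array medians. ATMG00840 (0.30 ± 0.15), ATMG00140 (0.21 ± 0.09), ATMG00740 (0.20 ± 0.09) and ATMG01040 (0.18 ± 0.18) followed. The lowest were ATMG01370 (−0.25 ± 0.35), ATMG01020 (−0.25 ± 0.17), ATMG01000 (−0.21 ± 0.17), ATMG01200 (−0.20 ± 0.20) and ATMG00870 (−0.16 ± 0.13). The SE pools the spread of all 12 arrays, so it is wide for codes that differ between control arrays of the other comparisons even where the day 1 arrays lie close. For ATCG00070 the SE was 1.14, although its day 1 values were 12.82 and 12.70 on the drought arrays, against 12.86 and 12.78 on the control arrays. When only the 4 day 1 arrays were fitted, no organelle probe set was called either.

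The second comparison asked what differs after 10 days at the same soil moisture. Again limma called no chloroplast and no mitochondrial probe set, where 0.107% of all were called. At an unadjusted p under 0.05 there were 2 chloroplast and 1 mitochondrial probe sets, against 10.4% of all. Chloroplast differences ran from −1.03 to 1.30, with a median of −0.07 and 48 of 72 below 0. Mitochondrial differences ran from −0.36 to 0.86 with a median of 0.01, and 27 of 50 were above 0. The median of all probe sets was 0.02. Arrays did not overlap for 7 higher and 12 lower chloroplast and 9 higher and 7 lower mitochondrial probe sets, where 25.7% of all were higher and 18.9% lower.

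The chloroplast values on day 10 turned on the choice of control array. Against control replicate 1 alone 65 of 72 probe sets were below 0, with a median of −0.28. Against control replicate 2 alone, the array that stood apart, 17 were below 0 and the median was 0.16. The 21339 nuclear probe sets had a median of 0.02 against either array. ATCG00330 was the highest difference, with 8.02 and 8.05 on the drought arrays, against 7.86 and 5.60 on the control arrays (1.30 ± 0.68, adjusted p = 0.582). ATCG00210 (0.78 ± 0.52), ATCG01010 (0.74 ± 0.38), ATCG00730 (0.72 ± 0.39) and ATCG00590 (0.65 ± 0.58) followed it. For ATCG00210 the values were 8.05 and 8.26 on the drought arrays, against 7.98 and 6.78 on the control arrays, and control replicate 2 was again the low one. ATCG00590 overlapped, at 11.87 and 11.91 on the drought arrays, against 12.27 and 10.21 on the control arrays.

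The lowest day 10 differences were those of ATCG00270 (−1.03 ± 0.52) and ATCG00280 (−0.70 ± 0.39), both brighter on control replicate 2. ATCG00280 read 12.73 and 12.57 on the drought arrays, against 12.86 and 13.84 on the control arrays. ATCG00520 differed with close replicates, at 11.11 and 10.81 on the drought arrays, against 11.43 and 11.36 on the control arrays (−0.44 ± 0.18, adjusted p = 0.451). ATCG00790 (−0.43 ± 0.16) and ATCG00540 (−0.32 ± 0.17) completed the 5 lowest. In the mitochondrial genome ATMG00120 was highest, with 5.99 and 5.95 on the drought arrays, against 5.67 and 4.55 on the control arrays (0.86 ± 0.37, adjusted p = 0.471). ATMG00580 (0.32 ± 0.38), ATMG01360 (0.21 ± 0.37), ATMG00690 (0.21 ± 0.21) and ATMG01100 (0.19 ± 0.24) came after it. At the low end were ATMG01000 (−0.36 ± 0.17), ATMG01200 (−0.27 ± 0.20), ATMG01240 (−0.19 ± 0.16), ATMG00160 (−0.18 ± 0.11) and ATMG01020 (−0.17 ± 0.17).

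The third comparison asked what differs when soil dries until leaves wilt. Here 8 of 72 chloroplast probe sets fell and 0 rose in limma (3 fell and 8 rose after cyclic loess normalisation), where 27.0% of all probe sets were called, 14.5% lower and 12.5% higher. The called share of the chloroplast genome, 11.1%, was below that background, and 33.3% of its probe sets had an unadjusted p under 0.05, against 36.0% of all. Differences ran from −1.49 to 1.89, wider than on day 1 or day 10, with 39 of 72 below 0 and a median of −0.07 (0.20 after cyclic loess normalisation), against 0.00 for all probe sets. Lower levels in a bulk sample can mean fewer cells of a type or less RNA per cell, and these cannot be told apart. Arrays did not overlap for 20 lower and 10 higher probe sets, where 27.5% of all were lower and 27.1% higher.

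ATCG00810 had the smallest adjusted p of the chloroplast genome, with 9.80 and 9.54 on the drought arrays, against 10.85 and 11.10 on the control arrays, a fall of 2.46-fold (−1.30 ± 0.19, adjusted p = 0.000889). The replicates of each group lay within 0.3 log2 units of each other and the groups were far apart. ATCG01110 read 7.65 and 6.52 on the drought arrays, against 8.05 and 9.10 on the control arrays (−1.49 ± 0.39, adjusted p = 0.0209), with a spread of about a log2 unit within both groups. ATCG00800 read 10.25 and 10.58 on the drought arrays, against 11.39 and 11.23 on the control arrays (−0.89 ± 0.20, adjusted p = 0.00969). ATCG00640 read 10.60 and 10.50 on the drought arrays, against 11.24 and 11.43 on the control arrays (−0.78 ± 0.19, adjusted p = 0.0144). Both had tight replicates and no overlap. ATCG00750 read 11.87 and 11.47 on the drought arrays, against 12.18 and 12.54 on the control arrays (−0.69 ± 0.17, adjusted p = 0.0147). ATCG00160 read 10.15 and 10.56 on the drought arrays, against 10.88 and 11.01 on the control arrays (−0.60 ± 0.16, adjusted p = 0.0215). Apart from ATCG00810 and ATCG01110, the called falls were all under 2-fold. ATCG00710 showed the smallest called fall, with 10.50 and 10.24 on the drought arrays, against 10.74 and 10.92 on the control arrays (−0.46 ± 0.12, adjusted p = 0.0188). ATCG00050 read 6.42 and 7.10 on the drought arrays, against 7.60 and 7.82 on the control arrays (−0.95 ± 0.30, adjusted p = 0.0433).

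**Figure D3:**
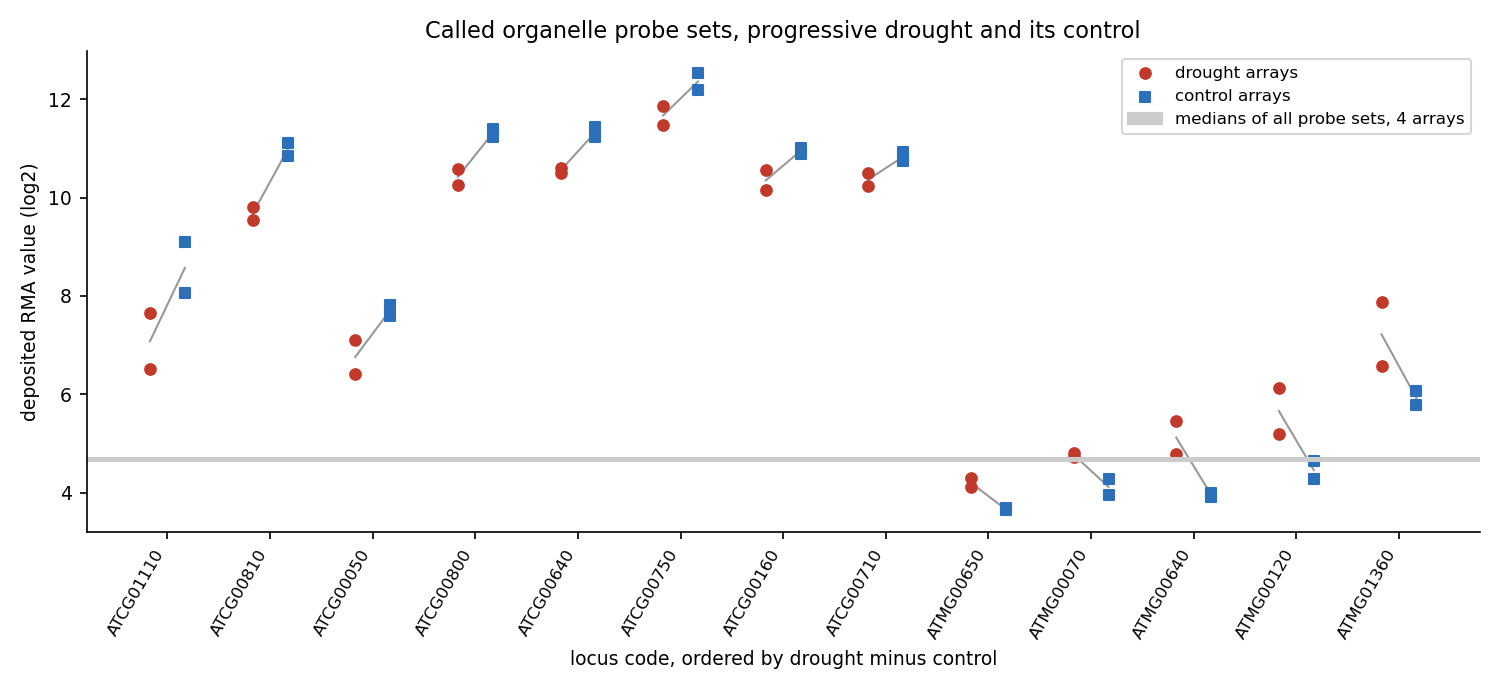
Deposited log2 RMA values (y axis) of the 13 organelle probe sets called in the progressive comparison, ordered by their drought minus control difference (x axis), with the 2 drought arrays (red circles) left of the 2 control arrays (blue squares) and grey lines joining the group means. The 8 chloroplast codes at the left are lower on the drought arrays as deposited (3 of them were called after cyclic loess), and 4 of the 5 mitochondrial codes at the right have control means below the array medians (grey band).

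ATCG00810 was called under all 20 alternative settings, at adjusted p from 0.000444 to 0.0357. The other 7 lost their call under 4 to 11 of the 20. Without drought replicate 2 ATCG01110 stood at −0.92, and without drought replicate 1 ATCG00050 stood at −0.61 and ATCG00160 at −0.39, none of them called. After cyclic loess over the 4 arrays 8 chloroplast probe sets rose and 3 fell, and only ATCG00050, ATCG00810 and ATCG01110 kept their fall, so the split of 0 higher and 8 lower depended on the normalisation. With the 4 arrays alone ATCG00810 was the 1 call, and with array weights there were 3. Without progressive drought replicate 1 the count was 7 higher and 11 lower, without drought replicate 2 it was 14 lower, and without either day 10 control array 4 higher and 9 lower. Without progressive control replicate 2 it was 3 higher (ATCG00070, ATCG00120 and ATCG00700) and 4 lower, with 2 of the 8 kept. Without both control arrays that stood apart it was 12, all lower, of which 6 were among the 8.

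The 5 largest positive chloroplast differences at wilting did not pass the test with all 12 arrays. ATCG00120 (1.89 ± 1.04, adjusted p = 0.238) and ATCG00070 (1.62 ± 1.14, adjusted p = 0.378) rested on control replicate 1, as given above. ATCG00330 read 6.88 and 8.38 on the drought arrays, against 5.41 and 6.28 on the control arrays (1.79 ± 0.68, adjusted p = 0.0893). ATCG00210 read 7.57 and 9.27 on the drought arrays, against 6.93 and 6.71 on the control arrays (1.60 ± 0.52, adjusted p = 0.0516). In these 2 the drought arrays were themselves more than a log2 unit apart, with replicate 2 the higher. ATCG00700 overlapped, at 8.67 and 10.25 on the drought arrays, against 6.90 and 8.82 on the control arrays (1.60 ± 0.70, adjusted p = 0.135). ATCG00270 was the largest fall that was not called, at 10.53 and 9.52 on the drought arrays, against 12.02 and 10.90 on the control arrays (−1.44 ± 0.52, adjusted p = 0.0746). Against control replicate 1 alone the chloroplast median was 0.03, and against control replicate 2 alone −0.18.

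The day 10 and progressive differences correlated at r = 0.71 across the 72 chloroplast probe sets when both control arrays of each were used. The 2 comparisons share no array, but each includes 1 of the control arrays that stood apart. Without those 2 arrays r was 0.32. Over the 50 mitochondrial probe sets r was 0.51 with and −0.14 without them, and over the 21339 nuclear probe sets it was 0.29 with and 0.25 without. Day 1 differences correlated with those of day 10 at −0.22 and with those of progressive drought at −0.06 over the chloroplast probe sets. These are descriptions across probe sets that share arrays.

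Neighbouring chloroplast codes tended to have similar differences at wilting when both control arrays were used. The correlation between the differences of adjacent codes was 0.42 over 71 chloroplast pairs in the progressive comparison, 0.21 on day 10 and 0.15 on day 1. Over 49 mitochondrial pairs it was 0.13, −0.10 and 0.00 in the same order, and over 21338 nuclear pairs 0.04, 0.07 and 0.06. The difference between these values was not tested, and they were not computed without the control arrays that stood apart. The 9 probe sets from ATCG00740 to ATCG00820, a stretch chosen after its values were seen, were all below 0 in all 3 comparisons. Their median was −0.22 on day 1, −0.20 on day 10 and −0.70 at wilting, where the range was −1.30 to −0.27 and 3 of the 9 were called lower (ATCG00750, ATCG00800 and ATCG00810), as were 14.5% of all probe sets. After cyclic loess and with the 4 arrays alone ATCG00810 was the 1 call of the 3 that was kept. Of all 72 chloroplast probe sets 49, 48 and 39 were below 0 on day 1, day 10 and at wilting. These signs use the mean of both control arrays. Against day 10 control replicate 2 alone not all 9 were below 0: ATCG00750 had a drought mean of 12.72, against 12.63 on that array. The uncalled ATCG00760 read 10.77 and 10.08 on the drought arrays, against 10.83 and 11.67 on the control arrays (−0.82 ± 0.30, adjusted p = 0.0771). ATCG00780 (−0.75 ± 0.26, adjusted p = 0.0645) and ATCG00770 (−0.70 ± 0.25, adjusted p = 0.0675) were not called either, nor were ATCG00740 (−0.33 ± 0.16), ATCG00790 (−0.46 ± 0.16) and ATCG00820 (−0.27 ± 0.25). At the other end of the range, the 4 probe sets from ATCG00070 to ATCG00130 were between 0.65 and 1.89 at wilting with 0 called, and all 4 are codes on which the control arrays disagreed.

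**Figure D4:**
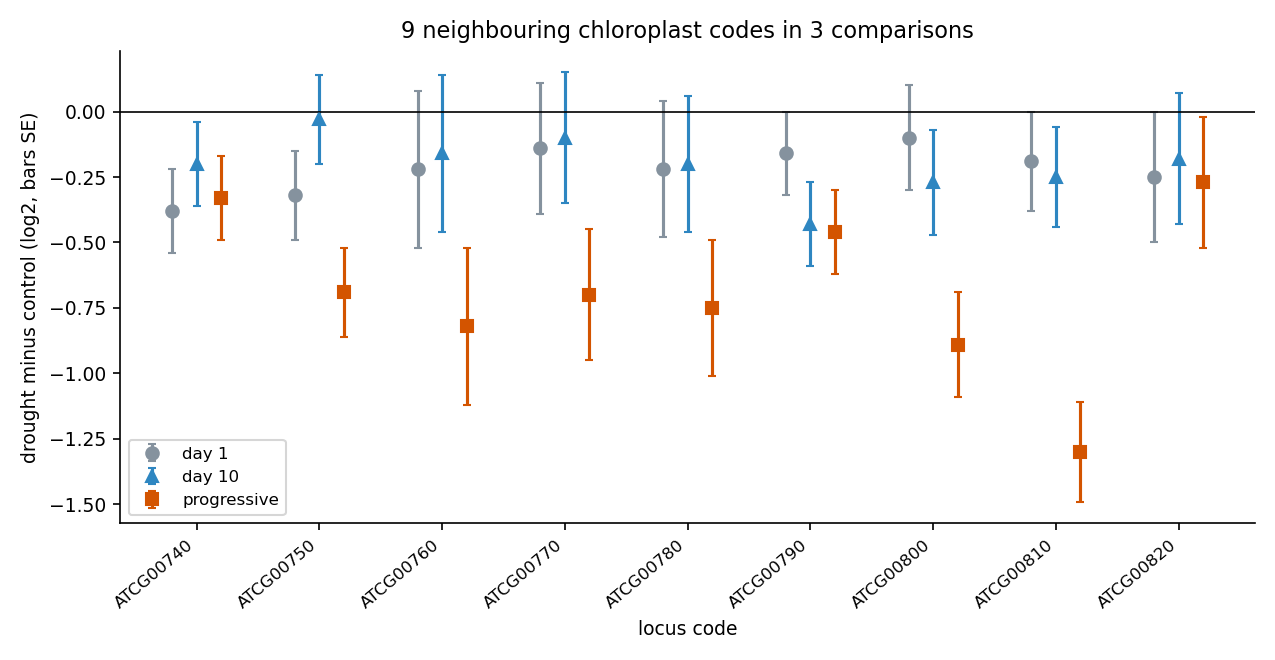
Log2 difference, drought minus control, with SE bars (y axis) for 9 neighbouring chloroplast codes (x axis) on day 1 (grey circles), day 10 (blue triangles) and at wilting (orange squares). All 27 points, against the mean of both control arrays, lie below 0, with medians of −0.22, −0.20 and −0.70.

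At wilting 5 of the 50 mitochondrial probe sets rose and 0 fell in limma, 10.0% called where 27.0% of all probe sets were called and 12.5% rose. At an unadjusted p under 0.05 there were 11 (22.0%, against 36.0% of all). The median difference was 0.14 and 40 of 50 were above 0, against a median of 0.00 for all probe sets, and differences ran from −0.13 to 1.65. Drought arrays lay above control arrays without overlap for 18 probe sets and below for 1, where 27.1% and 27.5% of all did. The count of mitochondrial probe sets above the array median was 11 and 15 on the drought arrays, against 6 and 8 on the control arrays.

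ATMG00640 had the smallest adjusted p, with 4.78 and 5.46 on the drought arrays, against 4.00 and 3.92 on the control arrays, a 2.23-fold rise (1.16 ± 0.21, adjusted p = 0.00356). Its groups were well separated, and it was called under 18 of 19 alternatives, the exception being the fit of the 4 arrays alone (adjusted p = 0.0965). ATMG01360 read 6.57 and 7.88 on the drought arrays, against 5.78 and 6.06 on the control arrays (1.30 ± 0.37, adjusted p = 0.028). It was the only called member with a control mean above the array median. ATMG00120 read 5.19 and 6.13 on the drought arrays, against 4.28 and 4.64 on the control arrays (1.20 ± 0.37, adjusted p = 0.0423). ATMG00070 read 4.73 and 4.81 on the drought arrays, against 4.27 and 3.96 on the control arrays (0.66 ± 0.16, adjusted p = 0.0137). ATMG00650 read 4.11 and 4.29 on the drought arrays, against 3.64 and 3.68 on the control arrays (0.54 ± 0.17, adjusted p = 0.041). These last 2 had replicates within 0.4 log2 units of each other. Of these 4, ATMG00650 lost its call under 14 of 19 alternatives, ATMG00120 under 12 of 19, ATMG01360 under 6 of 20 and ATMG00070 under 4 of 19. The difference of ATMG01360 ran from 0.65 without drought replicate 2 to 1.96 without drought replicate 1, and that of ATMG00120 from 0.73 to 1.66 in the same order.

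The largest mitochondrial difference was not called: ATMG00660 read 7.15 and 8.25 on the drought arrays, against 5.20 and 6.90 on the control arrays (1.65 ± 0.65, adjusted p = 0.101), and it is the mitochondrial code on which both control pairs differed. ATMG00580 read 8.87 and 10.13 on the drought arrays, against 8.57 and 8.62 on the control arrays (0.91 ± 0.38, adjusted p = 0.123). Its excess came mostly from drought replicate 2. The 5 lowest differences were small, from ATMG01020 (−0.13 ± 0.17) and ATMG00720 (−0.11 ± 0.12) to ATMG00260 (−0.08 ± 0.11), ATMG00890 (−0.07 ± 0.09) and ATMG01350 (−0.03 ± 0.15). The 7 probe sets with a control mean above the array median had a median difference of 0.60, and the 43 below it 0.13.

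The mitochondrial count depended on single arrays. Without progressive drought replicate 1, 13 probe sets rose with a median of 0.22, and without replicate 2 there were 2, with a median of 0.02. The count was 2 without progressive control replicate 1 and without both control arrays that stood apart, and 3 without progressive control replicate 2, either day 1 control array or either day 10 drought array. It was 0 with the 4 arrays alone and 1 with array weights, and no mitochondrial probe set fell in any of these fits. Some RNA quality values differed between the progressive arrays as well. The 3′ minus 5′ difference of the actin control was 0.80 and −1.05 on the progressive drought arrays, against 1.41 and 1.25 on their controls. On drought replicate 2 the actin 3′ set was dim, at 3.41 where the array median was 4.69. For the ubiquitin control the difference was −0.36 and −0.12 on the drought arrays, against −0.18 and −0.43 on the control arrays. The 25S ribosomal RNA control set read 10.75 and 9.53 on the drought arrays, against 8.91 and 8.88 on the control arrays. The part of RNA quality in the organelle differences was not tested.

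**Figure D5:**
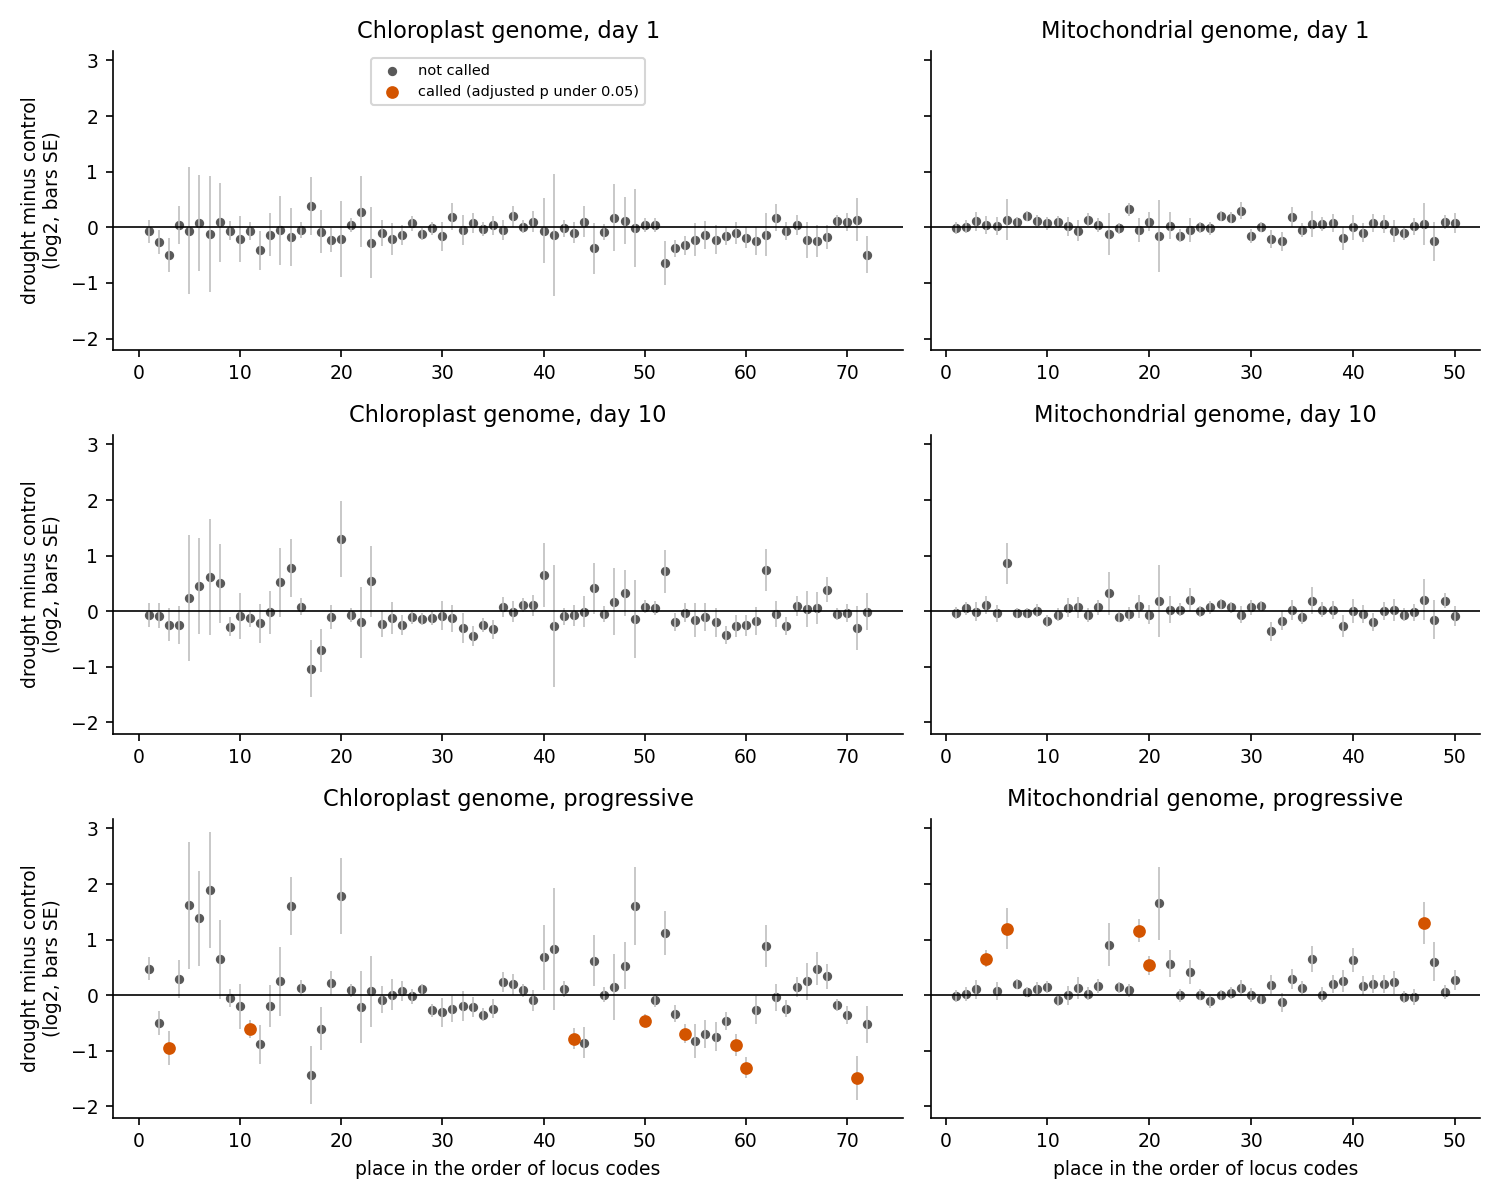
Log2 difference, drought minus control, with SE bars (y axis) of each chloroplast (left) and mitochondrial (right) probe set in the order of its locus code (x axis), for day 1, day 10 and progressive drought from top to bottom; orange points were called. Calls are seen only in the progressive comparison, 8 below 0 in the chloroplast genome (3 below and 8 above after cyclic loess) and 5 above 0 in the mitochondrial genome. Among all probe sets 0.0186% were called on day 1, 0.107% on day 10 and 27.0% in progressive drought.

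Whether a drought effect itself differed between comparisons was tested by contrasts within the 12-array model. ATCG00810 fell more at wilting than on day 1, by −1.11 ± 0.26 log2 units (adjusted p = 0.026), and more than on day 10, by −1.05 ± 0.26 (adjusted p = 0.0326). Its effect was −0.19 ± 0.19 on day 1, −0.25 ± 0.19 on day 10 and −1.30 ± 0.19 at wilting. ATMG00640 rose more at wilting than on day 1, by 1.21 ± 0.30 (adjusted p = 0.0328), with effects of −0.05 ± 0.21 on day 1, 0.09 ± 0.21 on day 10 and 1.16 ± 0.21 at wilting. These were the 3 calls among the organelle members, where 12.5% of all probe sets differed between progressive drought and day 1 and 12.3% between progressive drought and day 10. Between day 10 and day 1 limma called 0 members, with 1 chloroplast and 0 mitochondrial probe sets at an unadjusted p under 0.05, where 6.86% of all did, and called 0 of all 21461 probe sets. Each of the 3 calls was lost without both control arrays that stood apart, without either day 1 control array and under the replicate block, at differences of −1.24, 1.25 and −1.09 without the 2 control arrays.

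Nuclear genes with products linked to organelles gave a separate view of the same leaves, from 7 lists with 60 measured genes. The lists cover organelle transcription, RNA turnover, subunits of the photosynthetic and respiratory complexes, and alternative respiration. On day 1 and day 10 limma called 0 of the 60, where 0.0186% and 0.107% of all probe sets were called. At wilting the counts below stand beside 14.5% lower and 12.5% higher among all probe sets. At wilting the sigma factors, which direct the bacterial-type chloroplast polymerase to promoters, were called lower for 3 of 6 and higher for 1. SIG2 read 7.20 and 6.66 on the drought arrays, against 8.51 and 8.73 on the control arrays (−1.69 ± 0.17, adjusted p = 0.00015). SIGF (−1.39 ± 0.24, adjusted p = 0.00241) and SIG4 (−0.69 ± 0.21, adjusted p = 0.0409) fell as well. Without drought replicate 1 SIG4 stood at −0.35 and was not called. SIGE, a sigma factor known to respond to light and stress, read 9.43 and 7.83 on the drought arrays, against 5.35 and 6.84 on the control arrays (2.53 ± 0.58, adjusted p = 0.0103), a 5.78-fold rise with wide spread in both groups. It was not called without progressive control replicate 1. Neither of 2 measured phage-type polymerases was called: SCA3, of the chloroplast, was at −0.46 ± 0.24 and MGP3, of mitochondria, at 0.09 ± 0.13.

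Genes for proteins bound to the chloroplast polymerase were called lower in 10 of 11 cases, where 14.5% of all probe sets were. All 11 were below 0, with a median of −1.31, against 0.00 for all probe sets. Some of these differences depended on single arrays. With an array left out FLN1 ran from −2.67 to −1.08 and PTAC3 from −1.05 to −0.38, where PTAC14 ran from −1.38 to −1.19. PTAC14 (−1.28 ± 0.11, adjusted p = 5e-05), MURE (−1.15 ± 0.11, adjusted p = 8.42e-05), the thioredoxin TRX z (−1.52 ± 0.23, adjusted p = 0.00123) and the iron superoxide dismutase FSD3 (−1.39 ± 0.22, adjusted p = 0.00153) had the smallest adjusted p. Of the 6 measured genes of organelle RNA turnover 4 were called lower and all 6 were below 0, with a median of −1.0. CRB, a chloroplast RNA-binding protein also called CSP41B, read 9.32 and 9.70 on the drought arrays, against 11.45 and 11.91 on the control arrays (−2.17 ± 0.18, adjusted p = 5.25e-05). Its partner CSP41A (−2.09 ± 0.24, adjusted p = 0.000294), the chloroplast polynucleotide phosphorylase RIF10 (−1.14 ± 0.23, adjusted p = 0.00571) and the endoribonuclease RNEE/G (−0.60 ± 0.15, adjusted p = 0.0169) were the others. With an array left out CSP41A ran from −2.57 to −1.62 and RNEE/G from −0.79 to −0.41.

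Of 15 nuclear-encoded subunits of the photosynthetic complexes 14 were called lower, where 14.5% of all probe sets were. All 15 were below 0, with a median of −0.79. In the chloroplast genome 8 of 72 were called lower with a median of −0.07, on the deposited values as for the nuclear list. After cyclic loess 3 chloroplast probe sets were called lower and 8 higher, with a median of 0.20. The nuclear list is not given after cyclic loess here, so the 0.20 has no nuclear counterpart. NdhN, of the NADH dehydrogenase-like complex, read 6.67 and 6.73 on the drought arrays, against 8.83 and 8.90 on the control arrays (−2.16 ± 0.11, adjusted p = 6.4e-06). PSBO2 of photosystem II (−1.04 ± 0.10, adjusted p = 9.8e-05), PSAK of photosystem I (−1.04 ± 0.10, adjusted p = 0.000114) and ATPC1 of the ATP synthase (−1.27 ± 0.13, adjusted p = 0.00012) followed. The difference between the nuclear list and the chloroplast probe sets was not tested. The mesophyll markers GAPA (−0.76 ± 0.17) and RCA (−0.67 ± 0.19), the 2 measured of 4 listed, fell. The vascular marker IRX3 rose (0.76 ± 0.14), 1 of 5 vascular markers called. KAT1, a potassium channel of guard cells, read 4.54 and 3.52 on the drought arrays, against 5.20 and 5.36 on the control arrays (−1.26 ± 0.26, adjusted p = 0.00692). All 3 measured guard cell markers were below 0, with a median of −0.36, and KAT1 was the 1 called. The part of cell type shares in these differences was not tested.

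Of 12 genes of the alternative respiratory pathway 3 rose and 1 fell at wilting, and of 8 nuclear subunits of the respiratory complexes 1 rose and 2 fell, shares not far from the 27.0% called among all probe sets. NDA2, an internal alternative NADH dehydrogenase (1.17 ± 0.12, adjusted p = 0.000158), AOX1A, an alternative oxidase (1.04 ± 0.17, adjusted p = 0.00165), and NDB2, an external alternative NADH dehydrogenase (1.65 ± 0.42, adjusted p = 0.0172), rose, and NDC1 (−0.79 ± 0.16, adjusted p = 0.00506) fell. NDB2 read 7.27 and 5.73 on the drought arrays, against 4.51 and 5.18 on the control arrays, and its difference ran from 0.88 without drought replicate 1 to 2.42 without drought replicate 2. SDH1-1, of succinate dehydrogenase, rose with 9.81 and 8.84 on the drought arrays, against 7.52 and 7.63 on the control arrays (1.76 ± 0.26, adjusted p = 0.00106). ATP3 of the ATP synthase (−0.85 ± 0.13, adjusted p = 0.00128) and COX6B of cytochrome c oxidase (−0.56 ± 0.14, adjusted p = 0.0189) fell. Without progressive control replicate 2 COX6B stood at −0.36 and was not called. The medians of these 2 lists were 0.08 and −0.06.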

How the data were processed

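Affymetrix ATH1 arrays measured 12 pools of young leaves in 6 groups of 2. Per the submitters' processing notes the deposited log2 values were made with RMA and the affy package; their versions, and how probes were regrouped by locus, are not stated here. Per the labels' protocols, a 3′ in vitro transcription kit added biotin. Sorted values had a mean SD of 0.0214 within the day 1 set of 4 arrays, 0.0255 within the day 10 set, 0.0302 within the progressive set and 0.3 over all 12, so the sets were taken as normalised separately.

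Drought minus control was fitted with limma 3.58.1 in R 4.3.3 (lmFit, eBayes) over all 12 arrays with 6 group means, leaving 6 residual and 2.78 prior degrees of freedom. Two-sided p-values were adjusted by Benjamini-Hochberg across 21461 probe sets, after 56 control sets were left out, with calls at an adjusted p under 0.05. Errors after ± are SE of this fit. Where nothing more is said, differences are log2, drought minus control. Labels name the arrays of a group biological replicates.

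The main fit did not pair arrays by replicate number. Replicate differences of the arms correlated at 0.03 on day 1, 0.06 on day 10 and −0.49 in the progressive comparison. In the progressive comparison, drought replicate 2 thus tended to deviate with control replicate 1. The main fit does not model this, and the replicate block joins only arrays of the same number. Alternatives were the 4 arrays alone, array weights, a mean-variance trend with robust fit, cyclic loess, centring on the nuclear median, a filter on dim probe sets, a replicate block and each array left out. Leaving out 2 control arrays together was added after the data were seen. The members, gene lists and rules were chosen with earlier results of these data known. Named members are all called ones, the 5 highest and 5 lowest differences per genome and comparison, and up to 4 called genes per nuclear list by smallest adjusted p; members named for the control arrays or as neighbours were chosen after their values were seen. Planned groups by gene role and transcription unit, and members fixed by gene symbol, were not used because no table given pairs organelle codes with names. Of 89 listed nuclear loci, 3 had no RefSeq symbol and 8 were not measured. Tested on simulated data of the day 1 comparison with 21461 probe sets, the fit recovered 69.0% to 71.5% of changes of 1 log2 unit (5.35% of calls false) and 92.0% to 95.5% of changes of 2 log2 units (4.12% false). The simulated noise was normal, independent between probe sets and of equal SD in all groups. The chloroplast SD between replicates ran from 0.17 to 0.74 by group, so these rates need not hold for the organelle members. Figures used matplotlib 3.10.9 in Python 3.11.15.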

Additional observations from a re-analysis of the deposited data

Results flagged for a closer look

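Differences between drought effects picked out 2 organelle probe sets. For ATCG00810 the effect at wilting differed from that of day 1 by −1.11 log2 units and from that of day 10 by −1.05, both by a contrast of the same limma fit. For ATMG00640 the effect at wilting differed from that of day 1 by 1.21. Among all probe sets 12.5% differed between wilting and day 1 and 12.3% between wilting and day 10. Each of the 3 calls was lost under the replicate block, without either day 1 control array and without both control arrays that stood apart. The day 1 and day 10 effects of both codes were within 0.3 log2 units of 0.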

How the results depend on the processing

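With 2 arrays per group, a spread pooled over 12 arrays and dim mitochondrial signal, small differences are not resolved. Day 1 and day 10 counts of called organelle probe sets were 0 under every alternative, and the main fit called 0.0186% and 0.107% of all probe sets. At wilting the chloroplast count of 8 became 1 with the 4 arrays alone, 3 with array weights, 15 with the filter on dim probe sets (2 higher, 13 lower) and, under the replicate block, 5 (1 higher, 4 lower); it was 7 to 18 with an array left out. The mitochondrial count of 5 became 0 with the 4 arrays alone, 1 with array weights, 1 with the dim filter, which leaves 6 members, and 2 without both control arrays that stood apart; it was 5 under the replicate block and 2 to 13 with an array left out. The chloroplast median at wilting became 0.20 with cyclic loess and ran from −0.18 to 0.09 with an array left out, from −0.28 to 0.16 on day 10 and from −0.13 to 0.01 on day 1. The mitochondrial median became −0.14, 0.20 and 0.75 with the dim filter on day 1, day 10 and at wilting, and −0.02 on day 10 without both control arrays. With an array left out it ran from 0.01 to 0.04, from −0.02 to 0.04 and from 0.02 to 0.22. Counts of differing effects between wilting and day 1, 1 in each genome, became 2 (chloroplast) with cyclic loess and 2 with the dim filter, 0 (mitochondrial) with the dim filter and 0 without both control arrays, and 0 in both genomes under the replicate block. Between wilting and day 10, the chloroplast count of 1 became 2 with cyclic loess, 0 under the replicate block and 0 without both control arrays, and the mitochondrial count of 0 became 1 with the trend and robust fit, cyclic loess, centring and without both control arrays. With an array left out these counts ran from 0 to 6 and 0 to 5 for the chloroplast and 0 to 7 and 0 to 6 for mitochondria. Single calls and counts of the nuclear lists were rated unchanged in 1319 alternatives, lost the call in 184 and moved by over 1.5 times in 9, with 0 reversed. For counts this rating does not look at direction, and it includes day 1 and day 10 list counts of 0. The cause of each change was not tested beyond what fewer arrays or probe sets imply.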

Other observations

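The values of ATCG01010 and of the 5S ribosomal RNA control set are given here for each separately normalised set, with no comparison of levels between sets. ATCG01010 read 2.99 and 2.92 on the day 1 drought arrays, against 3.03 and 3.14 on their controls. On day 10 it read 7.82 and 7.94 on the drought arrays, against 7.82 and 6.47 on the control arrays, and at wilting 6.84 and 7.59, against 6.27 and 6.39. The 5S control read 2.81 and 2.96 on the day 1 drought arrays, against 3.0 and 3.20 on their controls. The 3′ minus 5′ difference of the actin control on day 1 was 0.99 and 0.34 on the drought arrays, against 2.39 and 2.03 on the control arrays. That of the ubiquitin control was 0.01 and 0.05 on the drought arrays, against 0.08 and 0.31 on the control arrays.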
